A study of Rattus norvegicus with 12 samples.

Results

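Transcripts of primary rat cortical neurons were compared between 3 cultures exposed to isoflurane at 3 MAC and 3 control cultures kept in air. These are 6 of the 12 two-colour arrays of the series, chosen by the source names of their labels and not by any measured value. MAC is the minimum alveolar concentration, the unit in which the potency of an inhaled anaesthetic is expressed. The neurons came from fetal brains of 3 pregnant rats at pregnancy day 17, with 4 plates per rat. On day 16 in vitro the isoflurane plates spent 6 h in a gas-tight chamber at about 4% isoflurane, followed by 6 h of recovery before harvest. The control plates stayed in air in the same incubator, outside the chamber, so the gas and the time in the chamber cannot be told apart. The remaining arrays were 3 of halothane at 1 MAC (about 1%) and 3 of halothane at 3 MAC (about 3%), treated for the same times. Halothane at 3 MAC served here as the other agent at the same multiple of MAC, in the same chamber. The labels name no strain.

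Isoflurane is a halogenated ether used for general anaesthesia. It is known to potentiate GABA-A and glycine receptors, to open two-pore potassium channels, to inhibit NMDA and neuronal nicotinic receptors, and to release calcium from the endoplasmic reticulum. Cells short of folding capacity in the endoplasmic reticulum switch on chaperone genes through the sensors PERK, IRE1 and ATF6. PERK acts through the transcription factor ATF4, NRF2 drives genes against oxidants, MTF1 drives metallothioneins on metal load, and SREBP2 drives cholesterol synthesis. Osteopontin and other matricellular proteins are secreted signals of the extracellular matrix that are known to rise in injured tissue.

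On each array the sample carried Cy5 and 1 pool of control RNA carried Cy3. Values are given as the log2 ratio of sample to pool, the likely reading of the deposited values. No source used here states the log base or the direction. Read the other way, every higher would become lower, and a deposited log base of 2 in place of 10 would divide every log2 value by 3.32. Over the 136 features whose 3 controls had an SD above 1, the mean linear ratio over the controls was 1.06 in the median as sample over pool and 1.48 as pool over sample. Without spot intensities, no probe was judged against background. The labels leave unclear whether every group received 1 plate of each rat or whether a rat served 1 treatment. The p-values measure only the spread between these plates, which may be technical or may mix rats.

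The 3 control arrays spread more than the 3 isoflurane arrays, with a median SD over genes of 0.185 against 0.141. Pearson's r over genes, as a description, was 0.640 to 0.742 among isoflurane arrays and −0.047 to 0.416 among controls. For control 2 it was 0.745 to 0.773 with halothane 3 MAC and −0.082 to 0.039 with isoflurane. Control 3 correlated with the isoflurane arrays at 0.469 to 0.625 and control 1 at 0.391 to 0.410. All arrays share the pool in the other channel. The pool is of control RNA, so r is no like measure of resemblance in control and treated groups. One halothane array, 1 MAC replicate 1, had a median of 0.235 and an SD over features of 0.818, against medians of −0.006 to 0.009 on the 6 arrays compared. That array enters the shared estimate of spread, so counts are given with and without it, and differences are given from each control.

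Few transcripts passed the test against all 3 controls. Of 16546 features, 12 passed an adjusted p of 0.05 (0.0725%), 10 of them higher (0.0604%) and 2 lower (0.0121%) with isoflurane. The split turned with the scaling of the arrays: with quantile scaling 1 feature was higher and 3 were lower (2 of the 12 among them), and with arrays scaled to one median absolute deviation 6 were higher and 3 lower. The test was limma's moderated test over all 12 arrays with Benjamini-Hochberg adjustment, and 1677 features (10.1%) had an unadjusted p under 0.05. The 12 comprised 7 genes that rose, 2 genes that fell and 3 probes without a gene name. Without halothane 1 MAC replicate 1 the count was 386 (2.33%), with 284 higher (1.72%) and 102 lower (0.616%), and all 12 were among them. Without that array and without control 2 it was 270 (1.63%), again holding all 12. The count thus differed widely with 1 array outside the comparison, and a gene below that passes only without it is given with that p.

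Each control array gave its own difference. The isoflurane mean was at least 1.5-fold above control 1 for 518 of 8973 genes (5.77%), above control 2 for 933 (10.4%) and above control 3 for 422 (4.70%). It was at least 1.5-fold below them for 310 (3.45%), 590 (6.58%) and 214 (2.38%) genes. The largest counts were against control 2 and the smallest against control 3. A single control differed from the mean of the other 2 by that much for 3.60%, 4.95% and 5.30% of genes upward and 2.69%, 6.87% and 4.62% downward, in the order control 1, 2 and 3. Genes at least 1.5-fold above every control numbered 128 (1.43%) and genes below every control 25 (0.279%). Of these 153 genes, 83 passed the test without halothane 1 MAC replicate 1, against 189 of all 9210 genes tested. The 153 were chosen on the same isoflurane and control values, so their count is no independent support. All 3 isoflurane arrays lay above all 3 controls for 1124 genes (12.5%) and below them for 896 (9.99%). With quantile scaling these counts were 832 above and 894 below, so the excess of higher genes depends on the scaling.

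The 7 genes that rose include a vesicle protein, a cytochrome P450, a kinase and osteopontin. Syt11, a synaptotagmin of vesicle traffic, measured 1.49, 1.34 and 1.33 on isoflurane arrays 1, 2 and 3 and 0.15, −0.28 and 0.15 on controls 1, 2 and 3. The 2 groups lay far apart, with a difference of 1.38 ± 0.15 (SE, 3 arrays against 3; limma adjusted p = 0.0104). Spp1, which encodes osteopontin, measured 1.81, 3.36 and 1.84 with isoflurane and 0.05, 0.00 and 0.32 in control. Isoflurane array 2 stood above the others, and all 3 stood above every control, with differences of 2.28, 2.33 and 2.02 from controls 1, 2 and 3. The mean difference was 2.21 ± 0.34 (4.63-fold, adjusted p = 0.0483). Cyp4b1, a cytochrome P450 monooxygenase, had the same single high array, with 2.01, 3.17 and 1.98 against −0.21, −0.18 and 0.57. Its mean difference was 2.33 ± 0.31 (5.02-fold, adjusted p = 0.0303).

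Pmepa1, a membrane protein that restrains SMAD signalling, measured 1.33, 1.22 and 1.15 with isoflurane and −0.19, −0.41 and 0.35 in control, a difference of 1.32 ± 0.18 (adjusted p = 0.0303). Tec, a cytoplasmic tyrosine kinase, measured 1.23, 1.13 and 1.29 against 0.22, −0.13 and 0.30, a difference of 1.09 ± 0.15 (adjusted p = 0.0419). In both genes the spread among isoflurane arrays was smaller than that among controls. Sptssb, a small subunit of the enzyme that starts sphingolipid synthesis, measured 1.76, 1.96 and 1.68 against −0.18, 0.08 and 0.65, a difference of 1.62 ± 0.23 (adjusted p = 0.0444). Its 2 probes differed in size, at 0.86 and 2.37. Tmem150a, a multipass membrane protein, measured 0.27, 0.62 and 0.46 against −0.49, −1.07 and −0.79, a difference of 1.23 ± 0.19 (adjusted p = 0.0483).

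Both genes that fell encode proteins of cell contact or signalling. Lingo2, a neuronal membrane protein with leucine-rich repeats, measured −1.58, −1.55 and −1.47 with isoflurane and −0.05, 0.09 and 0.05 in control. The arrays of each group lay close together, and the difference from each control was −1.48, −1.62 and −1.58 (mean −1.56 ± 0.12, adjusted p = 0.00054). Sh2d3c, an adaptor protein of integrin and receptor signalling, measured −0.69, −0.81 and −0.87 against 0.03, 0.11 and 0.09, a difference of −0.87 ± 0.13 (adjusted p = 0.0483). When each of the 12 arrays was left out in turn, Lingo2 passed in 12 of 12 fits and Syt11 in 10. Cyp4b1 and Spp1 passed in 3, and Pmepa1, Tec, Sptssb, Sh2d3c and Tmem150a in 2.

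**Figure D1:**
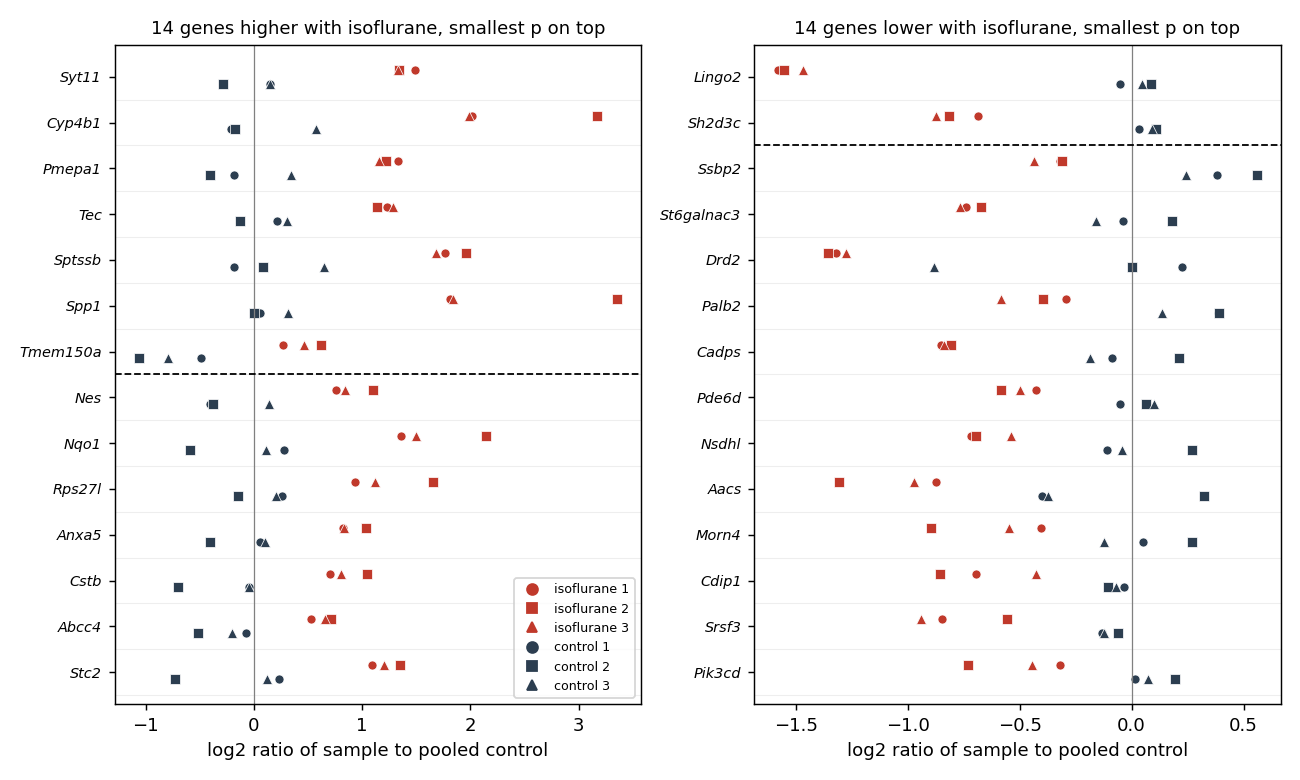
Log2 ratio of sample to pooled control for the 14 higher and 14 lower genes of smallest p whose isoflurane and control arrays did not overlap; each point is 1 array, red for isoflurane and dark for control. Genes above the dashed line passed the test over all 12 arrays. Spp1 and Cyp4b1 show isoflurane array 2 above the others, and Drd2 shows control 3 near the isoflurane arrays.

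The next 7 higher genes did not pass over all 12 arrays (adjusted p = 0.0536 to 0.0827) and each passed without halothane 1 MAC replicate 1. Nqo1, a quinone reductase and a standard NRF2 target, measured 1.36, 2.15 and 1.5 with isoflurane and 0.28, −0.59 and 0.11 in control. Its difference was 1.74 ± 0.28 (adjusted p = 0.0576, and 0.0118 without that array). Stc2, stanniocalcin 2, a secreted glycoprotein of the ATF4 response, measured 1.09, 1.35 and 1.20 against 0.23, −0.73 and 0.12. Nes, the intermediate filament nestin of progenitors and reactive cells, measured 0.75, 1.1 and 0.84 against −0.41, −0.38 and 0.14. Control 2 was the lowest control for Nqo1 and Stc2 and not for Nes. The others were Rps27l, a p53-inducible relative of a ribosomal protein (1.13 ± 0.19), Anxa5, annexin A5 (0.98 ± 0.17), Cstb, the cathepsin inhibitor cystatin B (1.12 ± 0.20), and Abcc4, an efflux transporter (0.89 ± 0.16). All 14 higher genes named so far were at least 1.5-fold above each control.

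The next 12 lower genes had adjusted p = 0.0798 to 0.142, and each passed without halothane 1 MAC replicate 1. Drd2, the dopamine D2 receptor, measured −1.32, −1.36 and −1.28 with isoflurane and 0.23, 0.00 and −0.88 in control. Control 3 lay close to the isoflurane arrays, so the difference was −1.54 from control 1, −1.32 from control 2 and −0.43 from control 3. Cadps, a priming factor of dense-core vesicle release, measured −0.85, −0.81 and −0.84 against −0.09, 0.21 and −0.18 (−0.81 ± 0.18). Aacs, which activates acetoacetate for lipid synthesis, measured −0.87, −1.31 and −0.97 against −0.40, 0.32 and −0.37. Its difference from control 2 was −1.37, against −0.65 and −0.68 from controls 1 and 3. The splicing factor Srsf3 differed by −0.68 ± 0.16. The sterol dehydrogenase Nsdhl differed by −0.69 ± 0.15, with its 2 probes at −0.99 and −0.39. The remaining 7 were Ssbp2 (−0.75), the sialyltransferase St6galnac3 (−0.72), the DNA repair protein Palb2 (−0.73), Morn4 (−0.68), Cdip1 (−0.59), the phosphoinositide kinase subunit Pik3cd (−0.59) and the prenyl-binding protein Pde6d (−0.54). Of the 14 lower genes, 6 were at least 1.5-fold below each control.

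Genes of the unfolded protein response stood above the controls as a group. Of 24 measured members, 21 were above 0 and the median difference was 0.35, against a median of 0.00 and 50.6% above 0 over all 8933 genes with values on every array. The medians against controls 1, 2 and 3 were 0.40, 0.30 and 0.32, so no single control carried the shift. All 3 isoflurane arrays lay above all 3 controls for 8 members (33.3%, against 12.5% of all genes) and below for 0. No member passed over all 12 arrays by limma, and 7 higher and 0 lower had an unadjusted p under 0.05 (6.54% and 3.46% of all genes). Without halothane 1 MAC replicate 1, 6 passed, all higher (1.52% of all genes higher and 0.532% lower): Pdia4, Dnajc3, Hsp90b1, Hyou1, Hspa5 and Creld2, of which the last 3 are named after their values were seen.

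Promoters are shown for genes of these stress lists because they carry the response elements named after each pathway. The ER stress response element (ERSE) is the binding unit of NF-Y and ATF6, searched as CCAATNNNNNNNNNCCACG on both strands of the 250 bases before the gene start (RefSeq, GRCr8). It was found in 22 of 33469 rat promoters (0.0657%) and in 7 of the 22 list members with a promoter (31.8%), namely Dnajc3, Hsp90b1, Derl3, Hspa5, Creld2, Calr and Canx. The UPRE core TGACGTG, which XBP1 and ATF6 bind, was found in 3 of 22 members (13.6%) and 1.54% of promoters. The last 4 letters of the ERSE are the first 4 of the UPRE core read on the other strand, so the motifs can overlap. Below, the promoter of Dnajc3 (chr15:102432417-102432666, plus strand) has its ERSE in capitals, starting 133 bases before the gene start. The promoter of Hyou1 (chr8:53602632-53602881, plus strand) has its UPRE core in capitals, starting 191 bases before the gene start.
Dnajc3: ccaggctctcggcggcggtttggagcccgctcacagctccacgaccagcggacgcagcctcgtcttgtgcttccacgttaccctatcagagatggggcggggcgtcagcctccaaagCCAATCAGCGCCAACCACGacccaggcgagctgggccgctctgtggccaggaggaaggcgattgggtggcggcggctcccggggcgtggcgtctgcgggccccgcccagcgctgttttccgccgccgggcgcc
Hyou1: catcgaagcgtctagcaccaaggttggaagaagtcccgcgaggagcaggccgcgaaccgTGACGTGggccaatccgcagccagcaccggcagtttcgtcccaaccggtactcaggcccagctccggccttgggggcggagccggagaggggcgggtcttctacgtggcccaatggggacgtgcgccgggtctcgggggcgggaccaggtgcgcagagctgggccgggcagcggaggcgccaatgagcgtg

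Dnajc3, a co-chaperone of the endoplasmic reticulum that inhibits PERK, measured 0.98, 1.32 and 0.93 with isoflurane and −0.43, −0.55 and 0.38 in control, a difference of 1.27 ± 0.25 (adjusted p = 0.0867, and 0.0205 without halothane 1 MAC replicate 1). Pdia4, a protein disulphide isomerase, measured 0.70, 0.81 and 0.85 against 0.04, −0.04 and 0.15. Its differences from the 3 controls were nearly equal, at 0.75, 0.83 and 0.64 (adjusted p = 0.0835, and 0.00914 without that array). Hsp90b1, the chaperone GRP94, measured 0.09, 0.40 and 0.81 against −0.70, −0.68 and −0.70, with more spread among isoflurane arrays than among controls. Hspa5, the chaperone BiP, measured 0.54, 1.02 and 0.74 against 0.12, −0.13 and −0.09. Creld2, a secreted disulphide isomerase of the same response, measured 1.39, 1.19 and 1.36 against −0.16, −0.11 and 0.39. In each of these genes the lowest isoflurane array was above the highest control. Derl3, of the degradation channel, differed by 0.69 ± 0.20 and its 2 probes disagreed, at 1.41 and −0.03. Over the 12 measured genes of the whole array with an ERSE, the median difference was 0.36 with 9 above 0, against a median of 0.00 (50.8% above 0) in the 7351 genes whose promoter had no match. Of these 12, 7 are the list members, all above 0, so both counts share genes. The others went both ways, with Pan2 at 0.36 and Ppm1l at 0.15 against Ankmy2 at −0.35, Zfand2a at −0.22 and Birc5 at −0.22. The shift of the 12 is thus that of the list members.

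**Figure D2:**
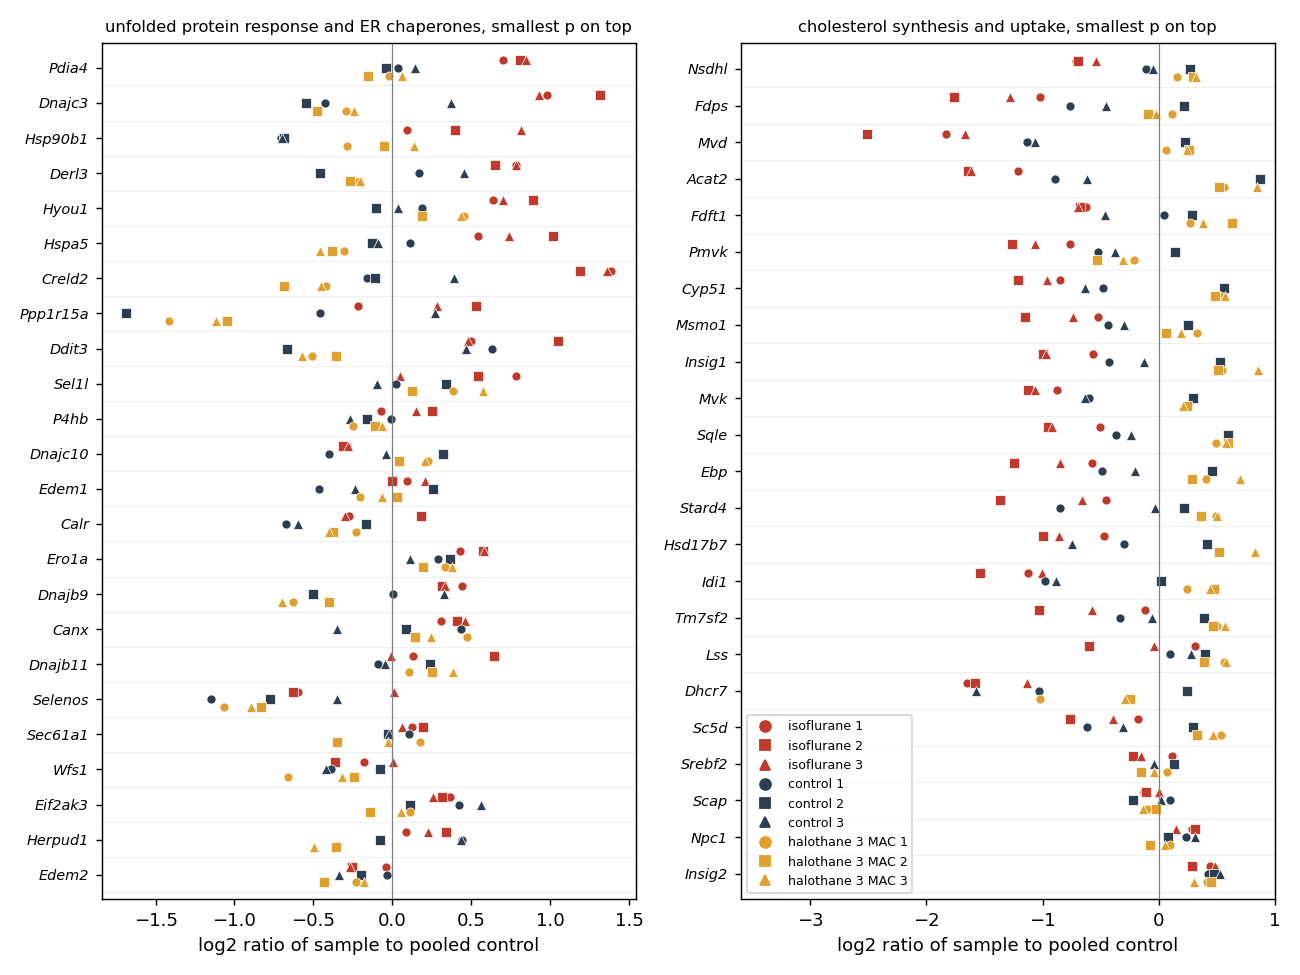
Log2 ratio of sample to pooled control for every measured member of the unfolded protein response list (24 genes) and the cholesterol list (23 genes), ordered by p; each point is 1 array of isoflurane, control or halothane 3 MAC. Isoflurane points lie to the right of control for Pdia4, Dnajc3 and Creld2 and to the left for most cholesterol genes, where control 2 sits among the halothane points.

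ATF4 targets and amino acid genes were also above 0 in most cases. Of 34 members, 31 were above 0 with a median of 0.36, and 13 lay above every control (38.2%, against 12.5% of all genes) with 0 below (9.99%). The median was 0.23 from control 1, 0.54 from control 2 and 0.23 from control 3, so the shift was larger against control 2. Sesn2, a stress-induced inhibitor of mTORC1, measured 1.08, 1.58 and 0.98 against 0.11, −1.1 and 0.41. Slc7a11, the cystine importer, measured 1.17, 1.37 and 1.25 against 0.28, −1.55 and 0.59. Control 2 was more than 1 log2 unit below the other controls in both genes. Stc2 was the single member to pass without halothane 1 MAC replicate 1 (1.52% of all genes passed as higher in that fit). None passed over all 12 arrays (12 higher and 0 lower at an unadjusted p under 0.05, against 6.54% and 3.46% of all genes). The ATF4 binding motif CARE, searched as TGATGNAA, was found in 8 of 30 members (26.7%) and in 3.4% of promoters. Trib3, a pseudokinase induced by ATF4, is shown with its match in capitals, read on the other strand and starting 21 bases before the gene start (chr3:161275534-161275783, minus strand).
Trib3: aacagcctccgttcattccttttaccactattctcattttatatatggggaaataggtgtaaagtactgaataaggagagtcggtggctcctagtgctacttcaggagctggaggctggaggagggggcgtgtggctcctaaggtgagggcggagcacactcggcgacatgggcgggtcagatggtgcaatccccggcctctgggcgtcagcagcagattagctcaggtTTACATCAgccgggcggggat
Trib3 measured 1.16, 1.87 and 1.37 with isoflurane and 0.52, −2.37 and 1.08 in control. Isoflurane arrays 1 and 3 were close to control 3, and control 2 lay far below them (adjusted p = 0.377).

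NRF2 antioxidant genes had the highest share outside the controls of the stress lists. Of 35 members, 29 were above 0 with a median of 0.34, and 20 lay above every control (57.1%, against 12.5%) with 0 below. The medians against the 3 controls were 0.23, 0.57 and 0.26. Nqo1, Abcc4 and Gclm passed without halothane 1 MAC replicate 1 (1.52% of all genes passed as higher in that fit). By limma over all arrays, 13 higher and 0 lower had an unadjusted p under 0.05 (6.54% and 3.46% of all genes). Gclm, the modifier subunit of the enzyme that limits glutathione synthesis, measured 0.44, 0.83 and 0.43 against −0.25, −0.29 and 0.06 (0.73 ± 0.18, adjusted p = 0.142). The core of the antioxidant response element, TGACNNNGC, was found in 9 of 31 members (29.0%) and 10.1% of promoters. The promoter of Gclm (chr2:213031885-213032134, plus strand) has it in capitals, read on the other strand, starting 172 bases before the gene start.
Gclm: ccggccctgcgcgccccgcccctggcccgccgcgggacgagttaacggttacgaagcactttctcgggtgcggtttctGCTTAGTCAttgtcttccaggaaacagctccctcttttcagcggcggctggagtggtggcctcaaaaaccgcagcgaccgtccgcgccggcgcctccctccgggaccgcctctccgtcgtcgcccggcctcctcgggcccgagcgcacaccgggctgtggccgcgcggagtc
Over all 935 measured genes with this core, the median difference was 0.01, close to the 0.00 of genes without it.

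Metallothioneins bind zinc and copper. Of 17 members of their list with zinc and copper transporters, 13 were above 0 with a median of 0.27, and 7 lay above every control (41.2%, against 12.5%) with 0 below. Mt1, metallothionein 1, measured 1.51, 1.69 and 1.67 against 0.41, −1.02 and 0.45, and its differences were 1.21, 2.65 and 1.18 from controls 1, 2 and 3. It passed without halothane 1 MAC replicate 1 (adjusted p = 0.0296), as did Mtf1, the metal-sensing factor itself (0.40 ± 0.12, adjusted p = 0.0471), whose 2 probes gave 0.74 and 0.06. Of all genes, 1.52% passed as higher in that fit. Mt2A measured 1.25, 1.46 and 1.36 against 0.41, −2.39 and 1.05, so that its difference was 3.74 from control 2 and 0.31 from control 3. The metal response element core TGCNCNC was found in 9 of 15 members (60.0%) and in 43.4% of promoters, so a match alone is common. The promoter of Mt1 (chr19:10832976-10833225, minus strand) held 7 matches on either strand, shown in capitals, the first starting 176 and the last 26 bases before the gene start.
Mt1: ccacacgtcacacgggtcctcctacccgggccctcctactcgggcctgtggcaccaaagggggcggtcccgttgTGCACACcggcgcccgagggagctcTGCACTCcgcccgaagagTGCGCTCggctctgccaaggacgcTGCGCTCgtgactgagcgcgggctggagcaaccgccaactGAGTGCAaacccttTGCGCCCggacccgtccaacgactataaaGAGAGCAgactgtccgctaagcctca

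Cholesterol synthesis genes stood below the controls. Of 23 measured members, 1 was above 0 and the median was −0.64. All 3 isoflurane arrays lay below all 3 controls for 13 members (56.5%, against 9.99%) and above for 0. The list mean was −0.57, −0.99 and −0.72 on the isoflurane arrays, −0.40 and −0.33 on controls 1 and 3, and 0.31 on control 2. The median difference was −0.41 from control 1, −1.17 from control 2 and −0.39 from control 3. Fdps, farnesyl diphosphate synthase, measured −1.03, −1.77 and −1.28 against −0.77, 0.21 and −0.46 (−1.02 ± 0.26, adjusted p = 0.151). Mvd, which makes isopentenyl diphosphate, measured −1.83, −2.51 and −1.66 against −1.14, 0.23 and −1.06 (−1.35 ± 0.34, adjusted p = 0.151). Acat2, which condenses acetyl-CoA, measured −1.21, −1.64 and −1.62 against −0.89, 0.87 and −0.62. In these genes controls 1 and 3 lay between the isoflurane arrays and control 2. Nsdhl was the single member that passed without halothane 1 MAC replicate 1 (0.532% of all genes passed as lower in that fit). By limma over all arrays, 12 lower and 0 higher had an unadjusted p under 0.05 (3.46% and 6.54% of all genes). The sterol regulatory element TCACNCCAC was found in 0 of 19 members and 0.974% of promoters in this window.

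Fatty acid synthesis genes had a median of −0.15, with 7 of 19 above 0. Above every control lay 2 members (10.5%, against 12.5% of all genes) and below 1 (5.26%, against 9.99%). Gpam, which starts glycerolipid synthesis, measured 0.91, 0.82 and 1.24 against 0.37, 0.09 and −0.18 and passed without halothane 1 MAC replicate 1 (adjusted p = 0.0229). Fasn, fatty acid synthase, measured −1.02, −1.28 and −1.08 against −1.02, 0.55 and −0.20. Control 1 lay at the level of isoflurane array 1, so the groups overlapped.

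Against the mean of the 3 controls, osteopontin and matricellular genes had the highest median of the 40 lists with at least 5 measured members, at 0.41. Their medians against controls 1, 2 and 3 were 0.27, 0.62 and 0.29, the highest of the lists against none of them. Leaving out 1 array, the median ran from 0.255 to 0.56. Of 27 members, 20 were above 0, 12 lay above every control (44.4%, against 12.5%) and 1 below (3.70%, against 9.99%), and 8 were at least 1.5-fold above each control (1.43% over all genes). The list mean was 0.42, 0.78 and 0.54 with isoflurane and 0.09, −0.41 and 0.16 in control. Spp1 was the member that passed over all 12 arrays (0.0604% of all features higher). Spp1, Nes, Tnc, Anxa1, Anxa2 and Thbs2 passed without halothane 1 MAC replicate 1 (1.52% of all genes higher). Tnc, tenascin C, measured 0.85, 1.1 and 1.05 against −0.07, −0.07 and 0.34 (0.93 ± 0.18, adjusted p = 0.0836). Its averaged probes differed in size, at 0.69, 1.90 and 0.21. Anxa1, annexin A1, measured 1.69, 3.23 and 1.47 against 0.27, −0.11 and 0.85 (1.79 ± 0.39, adjusted p = 0.116). As with Spp1, isoflurane array 2 stood above the others. The list was built around osteopontin with earlier results of these data known, so its direction is not independent of Spp1.

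**Figure D3:**
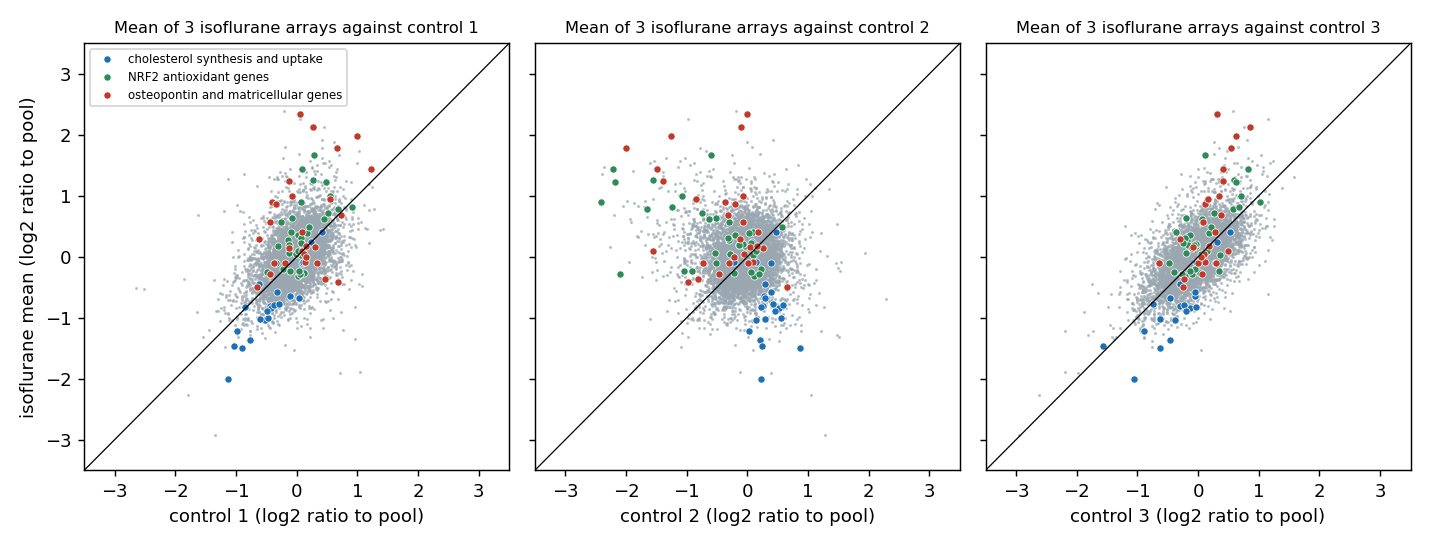
Mean of the 3 isoflurane arrays against each control array for every tested gene with a gene symbol, as log2 ratio to the pool. Cholesterol genes are in blue, NRF2 genes in green and matricellular genes in red, and the line marks equal values. NRF2 genes lie mostly above the line, with medians of 0.23, 0.57 and 0.26 above controls 1, 2 and 3, and cholesterol genes mostly below it.

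Among chemokines and cytokines, 21 of 31 were above 0 with a median of 0.24, and the median was −0.02 against control 3. Above every control lay 5 (16.1%, against 12.5% of all genes) and below 3 (9.68%, near the 9.99% of all genes). Ccl2, a monocyte attractant, measured 1.94, 3.01 and 1.85 against 0.06, −0.98 and 1.15 (2.19 ± 0.51, adjusted p = 0.142). Ccl7, a related chemokine, measured 0.76, 1.15 and 0.57 against 0.09, −0.07 and 0.30. Both passed without halothane 1 MAC replicate 1 (adjusted p = 0.0437 and 0.0434), and in both every isoflurane array was above every control. Of all genes, 1.52% passed as higher in that fit. Icam1, an adhesion molecule, measured 3.55, 0.22 and 0.41 against −0.28, −0.78 and 0.38, so its mean rests on isoflurane array 1. Interferon response genes had a median of 0.18, with 1 of 17 above every control (5.88%, against 12.5% of all genes).

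No transcript of the receptors and two-pore channels that isoflurane is known to act on passed the test (0.0725% of all features did). Of 15 GABA-A and glycine receptor subunits, 0 lay outside the controls in either direction (12.5% above and 9.99% below over all genes). Their median was −0.05. Gabrb1 was at −0.30 ± 0.20 and Gabra4 at 0.23 ± 0.16, with overlapping groups (adjusted p = 0.713 and 0.746). Of 8 two-pore potassium channels, 0 lay outside the controls, but their median was 0.20 and their list mean, at 0.18, −0.01 and 0.03, lay above every control (−0.07, −0.04 and −0.13). Among them Kcnk2, the TREK-1 channel, measured 0.58, 0.39 and 0.26 against 0.06, 0.24 and 0.32. Of 13 nicotinic subunits, 1 lay below every control (7.69%, near the 9.99% of all genes) and 0 above. It was Chrna4, part of the main brain receptor (−0.85, −0.96 and −0.64 against −0.18, −0.24 and −0.59). Of 14 ionotropic glutamate receptor subunits, 2 lay above every control (14.3%, against 12.5% of all genes) and 2 below (14.3%, against 9.99%). Grin3a, an NMDA receptor subunit, measured −0.75, −1.61 and −0.76 against 0.41, −0.17 and −0.44, and Grik1, a kainate receptor subunit, −1.20, −1.17 and −1.15 against 0.00, 0.64 and −0.95. Their differences of −0.97 ± 0.27 and −1.07 ± 0.32 were of the size of those of genes that passed, with adjusted p = 0.192 and 0.239. Grin2a, another NMDA receptor subunit, was at 0.71 ± 0.35 (adjusted p = 0.544). In these 4 lists, 0 members passed limma's test over all 12 arrays or without halothane 1 MAC replicate 1. The shares of all features were 0.0725% and 2.33%, so 0 in lists of this size is no result about these members. At an unadjusted p under 0.05 over all arrays, 1 nicotinic and 2 glutamate receptor subunits were lower and 0 members were higher. Over all genes, 3.46% were lower and 6.54% higher at that level.

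Of 46 other potassium channels, 6 lay above every control (13.0%, near the 12.5% of all genes) and 2 below (4.35%, against 9.99%). Kcnv1, a silent modifier of Kv2 channels, measured 1.47, 1.25 and 1.24 against 0.03, −0.67 and 0.79 and passed without halothane 1 MAC replicate 1 (adjusted p = 0.0492). Of 24 sodium, calcium and HCN subunits, 3 lay above every control (12.5%, the share of all genes) and 6 below (25.0%, against 9.99%). Scn3b, a sodium channel beta subunit, was the lower one of smallest p, at −0.16, −0.55 and −0.19 against 0.22, 0.21 and 0.01 (−0.44 ± 0.14, adjusted p = 0.286). Scn2b, another beta subunit, measured 1.28, 0.51 and 0.23 against −0.35, −0.28 and −0.12. Calcium store and pump genes had a median of 0.22, with 6 of 18 above every control (33.3%, against 12.5%) and 0 below. Atp2a2, the SERCA2 pump that refills the endoplasmic reticulum, measured 0.04, 0.19 and 0.39 against −0.41, −0.18 and −0.14 (0.45 ± 0.18, adjusted p = 0.405).

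In the release machinery, Syt11 rose, and Cadps was lower and passed without halothane 1 MAC replicate 1. The 51 members had a median of −0.08, with 7 above (13.7%) and 4 below every control (7.84%), near the shares of all genes (12.5% and 9.99%). Stx4, a plasma membrane syntaxin, measured 0.66, 0.97 and 0.72 against 0.09, −0.84 and 0.21. Unc13b, a vesicle priming factor, measured 0.58, 1.09 and 0.79 against 0.05, 0.48 and 0.11. Neither passed (adjusted p = 0.156 and 0.237), although their groups did not overlap.

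Neurotrophic genes had a median of 0.19, with 9 of 35 above every control (25.7%, against 12.5%) and 1 below (2.86%, against 9.99%). Nrg1, neuregulin 1, a ligand of ERBB receptors, measured 1.15, 1.20 and 1.12 against 0.14, −0.39 and 0.37 (1.11 ± 0.21, adjusted p = 0.0836). Sort1, the sorting receptor of proneurotrophins, measured 0.44, 0.60 and 0.56 against −0.27, −0.59 and 0.10. Igf2r, the IGF2 and mannose-6-phosphate receptor, measured 0.85, 1.11 and 0.99 against −0.33, 0.25 and 0.38. These 3 passed without halothane 1 MAC replicate 1 (adjusted p = 0.0127, 0.0336 and 0.0365). Of all genes, 1.52% passed as higher in that fit. Bdnf measured 0.49, −0.13 and 1.03 against −0.31, −0.26 and −0.50, with the isoflurane arrays more than 1 log2 unit apart.

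Among neuropeptides, Adcyap1, the precursor of PACAP, measured 1.33, 0.91 and 1.12 against 0.04, 0.06 and 0.44 (0.94 ± 0.19, adjusted p = 0.0877). It passed without halothane 1 MAC replicate 1 (adjusted p = 0.0127), as did Scg2, a secretogranin (adjusted p = 0.0444). Pmch, the precursor of melanin-concentrating hormone, measured −2.29, −1.81 and −1.61 with isoflurane and 0.71, 0.39 and −1.98 in control. Control 3 lay among the isoflurane arrays, and the difference was −2.62, −2.29 and 0.07 from controls 1, 2 and 3. The 31 members had a median of 0.03.

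Tubulin, neurofilament and axon growth genes had a median of −0.17, with 10 of 37 above 0 and 9 below every control (24.3%, against 9.99%). Lingo2 was the member that passed (0.0121% of all features lower). Nefl, the light neurofilament, went the other way at 0.65, 0.78 and 0.65 against −0.28, −0.02 and 0.24 and passed without halothane 1 MAC replicate 1 (adjusted p = 0.0229). Sema3a, a repulsive guidance signal, measured 1.15, 0.99 and 0.89 against 0.39, −0.82 and −0.32. Prph, peripherin, measured −0.74, −0.85 and −0.66 against −0.18, 0.31 and −0.64.

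Among genes of stress and growth control, p53 targets had a median of 0.16, with 7 of 28 above every control (25.0%, against 12.5%) and 3 below (10.7%, near the 9.99% of all genes). Cdkn1a, the cell cycle inhibitor p21, measured 0.75, 0.83 and 0.59 against 0.19, −0.38 and 0.20 and passed without halothane 1 MAC replicate 1 (adjusted p = 0.0415). Its probes differed in size, at 1.27, 0.50 and 0.39. Fas, a death receptor, measured 1.27, 2.05 and 1.29 against 0.47, −0.88 and 0.63 (adjusted p = 0.164). Of 36 cell cycle genes, 1 lay above every control (2.78%, against 12.5% of all genes) and 0 below (against 9.99%). It was Pcna, a replication clamp, at 0.05, 0.45 and 0.17 against −0.36, −0.29 and −0.38. It passed without halothane 1 MAC replicate 1 (adjusted p = 0.0391), where 1.52% of all genes passed as higher. The cell cycle median was −0.64 against control 2 and 0.02 and 0.15 against controls 1 and 3, so its sign changed with the control. Cytosolic ribosomal protein genes were above 0 for 39 of 46 (50.6% over all genes), with a median of 0.19. The median was 0.06 against control 1, 0.23 against control 2 and 0.32 against control 3. Above every control lay 11 (23.9%, against 12.5%) and below 1 (2.17%, against 9.99%). Rpl41 was at 0.79 ± 0.20 (adjusted p = 0.151, and 0.0423 without halothane 1 MAC replicate 1). Lysosomal genes had a median of 0.12, which ran from −0.003 to 0.203 when 1 array was left out, and Ctsl, cathepsin L, measured 0.51, 0.83 and 0.49 against −0.02, −0.51 and 0.04 (adjusted p = 0.116, and 0.0336 without halothane 1 MAC replicate 1).

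The remaining pathway lists had medians of −0.01 to 0.10. Heat shock genes had a median of 0.02. Of 23, 3 lay above every control (13.0%, against 12.5% of all genes) and 3 below (13.0%, against 9.99%). Cryab, a small heat shock protein, was at 0.59 ± 0.20. Glycolysis and hypoxia genes had a median of 0.08, and their list mean lay above every control. Of 30 members, 2 lay above every control (6.67%, against 12.5%) and 4 below (13.3%, against 9.99%). Adm, adrenomedullin, differed by 0.76, 1.94 and 0.31 from the 3 controls. Oxidative phosphorylation genes had a median of 0.07, with 6 of 41 above every control (14.6%) and 3 below (7.32%), near the shares of all genes. Immediate early genes had a median of 0.10, which was 0.49 against control 2 and 0.03 and 0.06 against the others. Of 34, 8 lay above every control (23.5%, against 12.5%) and 1 below (2.94%, against 9.99%). Circadian clock genes had a median of −0.01, and Clock itself measured 0.99, 0.36 and 0.73 against 0.24, −0.18 and −0.25. Xenobiotic metabolism genes had a median of 0.06, with Cyp4b1 the member that passed (0.0604% of all features higher). Of 39, 9 lay above every control (23.1%, against 12.5%) and 3 below (7.69%, against 9.99%), and their list mean lay above every control.

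**Figure D4:**
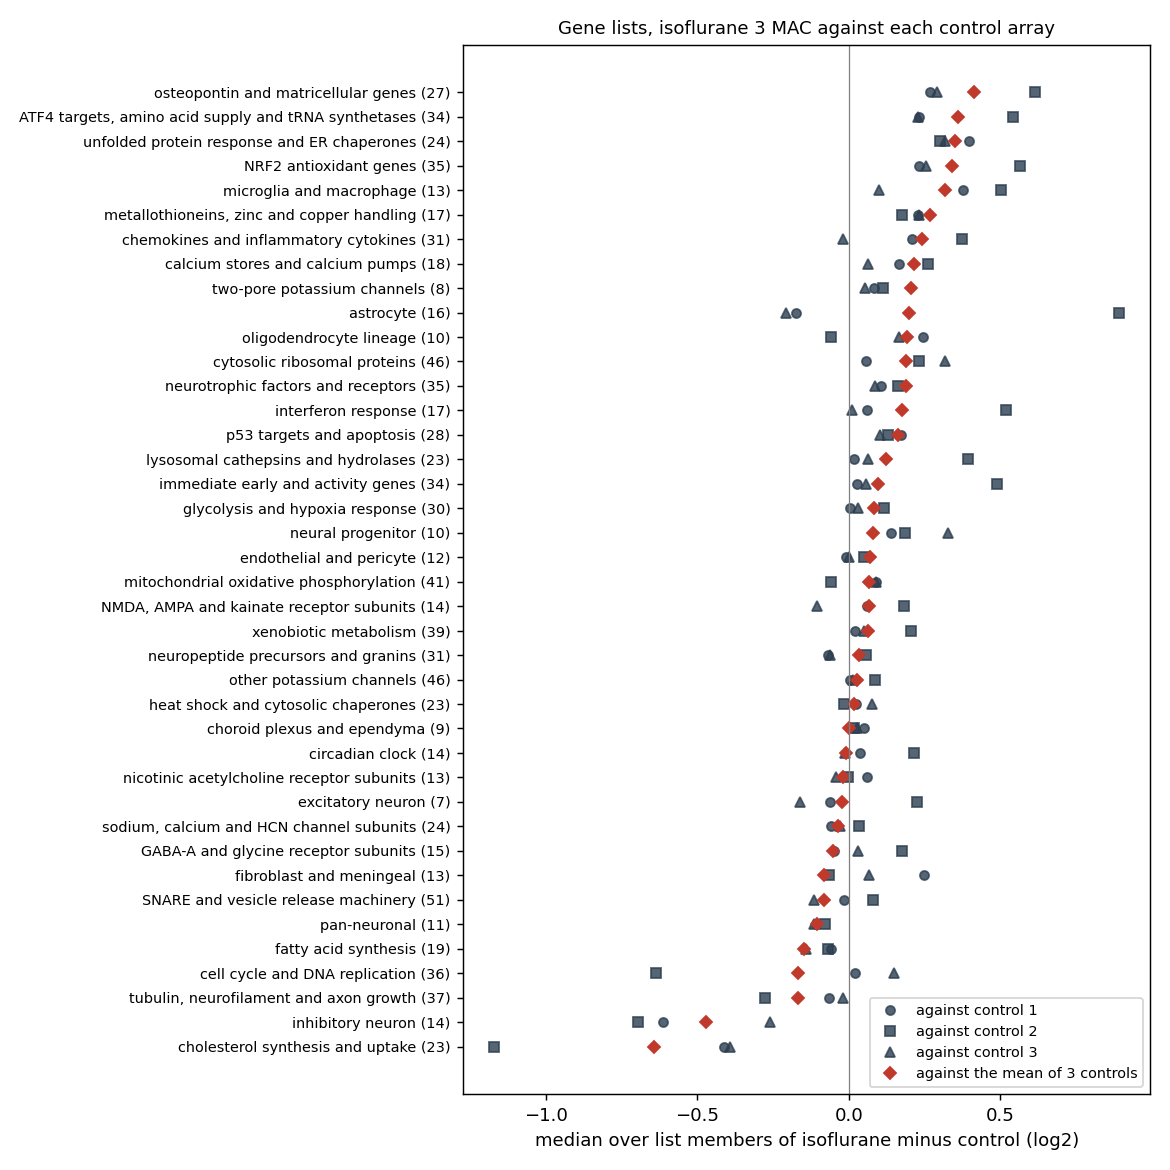
Median log2 difference of isoflurane minus control over the members of each gene list (number of members in brackets), against controls 1, 2 and 3 and against their mean. Against the mean, cholesterol genes are lowest at −0.64 and matricellular genes highest at 0.41. Inhibitory neuron markers are lowest against control 1, at −0.61, and matricellular genes are highest against no single control. The astrocyte and cell cycle lists change sign with the control used.

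The list means of isoflurane lay above every control for 12 of 40 lists, below every control for 2 and overlapped for 26. The 12 higher lists were unfolded protein response, ATF4, NRF2, metallothionein, p53, glycolysis, ribosomal, two-pore channel, calcium store, neurotrophic, matricellular and xenobiotic genes. The 2 lower lists were cholesterol synthesis and inhibitory neuron markers. Of 14 inhibitory neuron markers, 5 lay below every control (35.7%, against 9.99%) and 1 above (7.14%, against 12.5%), with a median of −0.47, and medians of −0.61, −0.70 and −0.26 against controls 1, 2 and 3. Gad1, which makes GABA, measured −1.04, −1.36 and −0.97 against −0.47, 0.59 and −0.45 (−1.01 ± 0.25, adjusted p = 0.142). Drd2 and Tac1, the precursor of substance P, were among the 5. Pvalb, parvalbumin, went the other way, at 0.43, 1.11 and 0.45 against 0.40, −0.15 and 0.02. In cultures of mixed cells, fewer cells of a type and less RNA per cell cannot be told apart.

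Markers of other cells were read beside these results, and their part in the results was not tested. Ratios to a pool give no level, so the presence of a cell type could not be judged from them. Astrocyte markers had list means of 0.13, −0.05 and 0.17 with isoflurane, 0.26 and 0.20 on controls 1 and 3, −0.91 on control 2, and −0.871 to −0.995 with halothane 3 MAC. Gfap, the astrocyte filament, measured 0.61, 0.51 and 0.57 with isoflurane and 0.38, −1.91 and 0.35 in control. Control 2 therefore stood with halothane and apart from the other controls for these markers. Of 16 astrocyte markers, 2 lay above every control (12.5%, the share of all genes) and 1 below (6.25%, against 9.99%).

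Microglia and macrophage markers differed within the isoflurane group, with list means of 0.72, −0.51 and 0.36 on arrays 1, 2 and 3 and −0.17, −0.28 and 0.20 in control. Of 13 members, 9 were above 0 with a median of 0.32, and 0 lay outside the controls (12.5% above and 9.99% below over all genes). Fcgr2b, an Fc receptor, measured 2.23, −0.54 and 2.31 against −0.24, −1.38 and 1.14. Isoflurane array 2, which was highest for Spp1, Anxa1 and Ccl2, was lowest for these markers. Oligodendrocyte markers had a list mean of 0.52 on isoflurane array 2 and −0.12 and −0.01 on arrays 1 and 3, against −0.17, 0.12 and −0.15 in control. Of 10 members, 8 were above 0 with a median of 0.19. Mag, a myelin protein, was at −0.13, 3.39 and 0.06 against 0.29, 1.34 and −0.27. Neural progenitor markers had list means of −0.07, 0.32 and 0.12 with isoflurane and −0.06, 0.01 and −0.26 in control. Of 10 members, 5 were above 0 with a median of 0.08, and 2 lay above every control (20.0%, against 12.5%) and 0 below. Vim, vimentin, measured 0.70, 1.14 and 0.98 against 0.55, −0.84 and 0.16. Fibroblast and meningeal markers had a median of −0.08, with 1 of 13 above every control (7.69%, against 12.5%) and 2 below (15.4%, against 9.99%). Fn1, fibronectin, measured 1.18, 2.89 and 1.28 against 0.42, −0.78 and 0.35. Dcn, decorin, went the other way, at −1.24, −1.62 and −0.77 against 0.77, −0.12 and −0.88, with overlapping groups. Choroid plexus markers had a median of 0.00, with Ttr, transthyretin, at −3.39, −2.19 and −3.19 against −1.34, 1.28 and −2.95. Endothelial markers had a median of 0.07, excitatory neuron markers one of −0.02 and pan-neuronal markers one of −0.10. Of 11 pan-neuronal markers, 1 lay above every control (9.09%, against 12.5% of all genes) and 2 below (18.2%, against 9.99%). Red blood cell markers had 3 members tested, 1 with values on every array, and were not summarised.

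The difference from halothane 3 MAC uses no control value, although the controls enter the shared estimate of spread, and asks which differences separate the agents at the same multiple of MAC. Of 16546 features, 580 passed (3.51%), 409 higher (2.47%) and 171 lower (1.03%) with isoflurane. Halothane 3 MAC against control gave 0 by the same limma test, with 1090 at an unadjusted p under 0.05 (6.59%). The 3 isoflurane arrays lay above the 3 halothane arrays for 1852 of 9102 genes (20.3%) and below for 1697 (18.6%). Without halothane 3 MAC replicate 1 the count of 580 became 0, and without halothane 1 MAC replicate 1 it became 2047. It was 469, 1038 and 794 without controls 1, 2 and 3.

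Lingo2 measured −0.11, −0.18 and −0.31 with halothane 3 MAC, a difference of −1.33 ± 0.12 between the agents (limma adjusted p = 0.00292). Spp1 measured −0.44, −0.54 and −0.31 with halothane 3 MAC, a difference of 2.76 ± 0.34 (adjusted p = 0.0116). On the halothane 3 MAC arrays both genes lay nearer to the controls than to isoflurane. With halothane 1 MAC both lay between control and isoflurane, Lingo2 at −0.81, −0.78 and −0.79 and Spp1 at 0.58, 0.48 and 0.91. Syt11 measured 0.86, 0.68 and 0.78 with halothane 3 MAC, between control and isoflurane, and the agents differed by 0.61 ± 0.15 (adjusted p = 0.0501). Slc1a5, a neutral amino acid transporter, measured 1.45, 1.48 and 1.49 with isoflurane, −1.20, −1.40 and −1.31 with halothane 3 MAC and 0.25, −1.14 and 0.71 in control. It differed by 2.77 ± 0.36 between the agents, with control 2 at the level of halothane. Mvd measured 0.06, 0.26 and 0.24 with halothane 3 MAC, a difference of −2.19 ± 0.34 (adjusted p = 0.0156). Mtf1 measured 0.45, 0.56 and 0.40 with halothane 3 MAC and differed by 0.01 ± 0.12 from isoflurane (adjusted p = 0.990).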

How the data were processed

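Two-colour Agilent arrays were used, per the labels, with sample RNA in Cy5 and a pool of control RNA in Cy3. The deposited values are read as log10 ratios and were multiplied by 3.32 to log2. They stop at a limit of 2 (100-fold). Partek is named, without version, per the submitters' processing notes, and no source used here gives the background or dye correction. The authors' array medians lay near 0 on 11 of 12 arrays, so the values appear centred. Of 21575 spots, 12750 (59.1%) had 1 gene symbol in the platform annotation, 5 several and 8820 none, and 12720 matched the RefSeq gene table. Exact zeros (15439 values, 5.96%) were treated as missing, and 471 unnamed spots at the limit on at least 10 arrays were left out. Probes of a gene with values on all 12 arrays were averaged. Features with at least 2 values in every group were tested, 9210 genes and 7336 unnamed probes.

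limma 3.58.1 in R 4.3.3 (lmFit on 4 group means and eBayes, with residual degrees of freedom of 8 and prior ones of 3.46) gave two-sided tests with Benjamini-Hochberg adjustment over 16546 features. SE is from that fit. Python 3.11.15 with numpy 2.4.6, pandas 2.3.3 and matplotlib 3.10.9 made tables and figures. The script was tested on simulated data. Members and gene lists (30 of pathways, 11 of cell types, with 942 of 1281 symbols tested) were chosen with earlier results of these data known. Named genes are those past the threshold, then those of smallest p with non-overlapping arrays up to 14 per direction, up to 4 of smallest p in each list (3 for cell types), and the 5 of smallest p per direction between the agents. Alternatives were the scaling, the arrays in the fit, the replicate block, zeros, probes, weights, moderation and leaving out each array.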

Additional observations from a re-analysis of the deposited data

Results flagged for a closer look

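Of the 28 genes named against control, 23 differed between isoflurane and halothane at 3 MAC by the direct limma contrast, which tests the difference between the 2 agents' effects because the control cancels. Over all 16546 features 580 passed (3.51%), and the 28 were chosen on the same isoflurane arrays, so their count is no independent support. The values are isoflurane minus halothane 3 MAC on the log2 scale. Higher with isoflurane were Spp1 by 2.76, Cyp4b1 by 2.46, Nqo1 by 1.97, Anxa5 by 1.36, Pmepa1 by 1.28, Tec by 1.27, Nes by 1.25 and Abcc4 by 1.18, each with an adjusted p of 0.0116. Sptssb was higher by 1.48 (adjusted p = 0.017), Stc2 by 1.31 (0.0213), Cstb by 1.06 (0.0216) and Tmem150a by 0.90 (0.0309). Lower with isoflurane were Lingo2 at −1.33 (adjusted p = 0.00292), Aacs at −1.58 and Sh2d3c at −0.91 (both 0.0116). The others lower were St6galnac3 at −0.88 (0.017), Nsdhl at −0.91 (0.0179), Ssbp2 at −0.77 (0.0183) and Palb2 at −0.88 (0.0204). Drd2 was at −1.15 (0.0303), Morn4 at −0.68 (0.0397), Pik3cd at −0.59 (0.0416) and Pde6d at −0.51 (0.0432). By the rule that chose them, the 3 isoflurane arrays of each gene lay outside the 3 controls or the gene passed against control. Without halothane 3 MAC replicate 1, no feature passed this contrast by limma. Halothane 1 MAC is not part of the contrast, and its means, replicate 1 included, went both ways. They lay nearer to isoflurane than to control for genes such as Nsdhl (−0.575), Abcc4 (0.44) and Anxa5 (0.44). For others, such as Pmepa1 (0.03), Ssbp2 (0.43) and Pde6d (0.08), they lay near control.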

How the results depend on the processing

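Against control, 12 features passed (10 higher, 2 lower), 4 with quantile scaling (1 higher, 3 lower, 2 of the 12 among them), 9 with one median absolute deviation (6 higher, 3 lower), 1 with only the 6 arrays compared, 1 with the replicate block, 7 with zeros kept, 398 with arrays weighted by their fit and 270 without halothane 1 MAC replicate 1 and control 2 (chosen after seeing the data). Leaving out 1 array gave 386 without halothane 1 MAC replicate 1, 79 without control 3 and 1 to 6 without each of the others. With the block, 8 of the 9 called genes no longer passed. Same-numbered arrays had deviations correlating at −0.077, 0.085 and 0.006, so the numbers were not taken to pair plates. Against halothane 3 MAC, 580 became 2807 with 6 arrays, 4492 with weights, 22 without moderation and 2994 without the 2 arrays. Leaving out 1 array gave 0 to 2047: 0, 1 and 1 without halothane 3 MAC replicates 1, 2 and 3, 32, 61 and 6 without isoflurane replicates 1, 2 and 3, and 1038 without control 2. The 2020 non-overlapping genes became 2020 to 3562 leaving out 1 array (highest without control 3), 1726 with quantile scaling, 1729 with one median absolute deviation and 2011 with values on all 12 arrays. List medians that moved by more than their array spread, with their range leaving out 1 array, were calcium stores (0.110 to 0.281, and 0.124 with quantile scaling), neurotrophic genes (0.058 to 0.188, 0.072 with quantile scaling and 0.058 without the 2 arrays), two-pore channels (0.120 to 0.230), heat shock (0.018 to 0.113, 0.113 without the 2 arrays) and axon growth (−0.192 to −0.053, −0.053 without the 2 arrays). Leaving out 1 array, the median spanned 0 for cell cycle (−0.373 to 0.036), astrocyte (−0.179 to 0.372), lysosomal (−0.003 to 0.203), neuropeptide (−0.122 to 0.088), circadian (−0.027 to 0.077), sodium, calcium and HCN (−0.034 to 0.016), excitatory neuron (−0.056 to 0.058) and choroid plexus genes (−0.056 to 0.034). It also did for GABA-A and glycine receptors (−0.061 to 0.067), nicotinic subunits (−0.032 to 0.062), release machinery (−0.088 to 0.041), pan-neuronal (−0.219 to 0.017), endothelial (−0.056 to 0.109, −0.056 without the 2 arrays) and fibroblast markers (−0.115 to 0.153, 0.153 without the 2 arrays, 0.081 with zeros kept). Signs turned for 6 genes that had not passed: Chrna1 (−0.119 against the pool), Chrna10 (−0.787 to 0.118 leaving out 1 array, 0.320 against the pool), Chrnd (−0.007 to 0.158), Fezf2 (−0.562 to 0.100, 0.100 without the 2 arrays), Mag (−0.490 to 1.270) and Alas2 (0.075 against the pool). The cause was not tested. The 3 arrays a group limit the precision.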
